A study of Mus musculus with 9 samples.

Results

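Tubulin genes encode the alpha and beta chains that pair to form microtubules. The 10 isotypes described here were taken by name from the count table, 7 beta genes (Tubb2a, Tubb2b, Tubb3, Tubb4a, Tubb4b, Tubb5 and Tubb6) and 3 alpha genes (Tuba1a, Tuba1b and Tuba4a), out of 49315 gene IDs in the table. All 10 were measured and all 10 passed the filter on low counts, which left 18492 genes. The question was whether their transcript levels, and the mix of isotypes, differed between young and old brains. PolyA-selected RNA from whole brain was sequenced for 5 young mice (labelled 3 months) and 4 old mice (33 months), all wild-type C57BL/6J and, by the study's methods, male. Old replicate 2 was not analysed here. The mice were of 1 strain and 1 sex, so the comparison is of ages within that background.

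Microtubules are tracks for axonal transport and supports for axons and dendrites, and brain is among the tissues richest in tubulin. Alpha and beta chains are folded by the chaperonin CCT and by tubulin cofactors, join as a dimer and exchange with polymer, and free dimer feeds back on the decay of tubulin mRNA while it is translated. The isotypes share a nearly identical folded body and differ mostly in their acidic carboxy-terminal tails, which face outward and carry added glutamates and other modifications.

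The ends of the coding sequences are shown for 7 isotypes because the isotypes differ most there and because near-identical copies affect how reads could be assigned. Each line gives the last 20 codons and the stop codon from GENCODE M21 transcripts (GRCm38), 63 bases, with codons for glutamate in capitals.
Tubb2a (chr13:34074468-34074530, minus strand): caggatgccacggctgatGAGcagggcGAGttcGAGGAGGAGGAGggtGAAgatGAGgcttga
Tubb2b (chr13:34127471-34127533, minus strand): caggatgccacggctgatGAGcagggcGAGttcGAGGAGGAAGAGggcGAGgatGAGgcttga
Tubb3 (chr8:123421620-123421682, plus strand): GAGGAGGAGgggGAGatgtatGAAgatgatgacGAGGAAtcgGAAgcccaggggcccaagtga
Tubb4a (chr17:57080690-57080752, minus strand): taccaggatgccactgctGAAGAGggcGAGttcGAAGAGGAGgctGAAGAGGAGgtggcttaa
Tubb4b (chr2:25222308-25222370, minus strand): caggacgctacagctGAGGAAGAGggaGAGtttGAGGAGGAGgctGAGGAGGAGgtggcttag
Tubb5 (chr17:35834982-35835044, minus strand): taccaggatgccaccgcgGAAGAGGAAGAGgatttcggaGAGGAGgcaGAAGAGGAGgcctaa
Tuba4a (chr1:75215622-75215684, minus strand): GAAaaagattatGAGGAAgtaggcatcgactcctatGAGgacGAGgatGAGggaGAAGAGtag

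Between 8 and 10 of the 20 codons were for glutamate in each of these isotypes. The last codon before the stop was gag, for glutamate, in Tuba4a, so that this alpha chain has no coded final tyrosine, the residue that the detyrosination cycle removes and restores. The ends of Tubb2a and Tubb2b differed at 3 bases, G42A, T48C and A51G (Tubb2a base first, positions counted from 1 at the first base shown). The translated tails of this pair were identical, and the whole translated chains were 99.6% identical, as were those of Tuba1a and Tuba1b. By contrast, the last 20 residues of Tubb3 were 15%, 20% and 40% identical to those of Tubb2b, Tubb5 and Tubb4b. The remaining bodies were 92.6%, 92.6% and 92.8% identical. Tubb3 has 450 codons against 445, 444 and 445, so these 20 residues need not be matching parts of the chains.

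Reads that map to several places were not counted by the authors, so copies matter for the counts. Of all 150-base stretches of their annotated transcripts, 54.7% for Tuba1a, 51.5% for Tuba1b, 27.9% for Tubb2a, 18.8% for Tubb2b and 11.9% for Tubb4b occurred unchanged in a transcript of another annotated gene. For Tuba4a this was 30.3%, all with Stk16, a kinase gene on the opposite strand whose exons overlap those of Tuba4a over 1379 bases. No such stretch was found for Tubb3, Tubb4a, Tubb5 or Tubb6. On the opposite strand, exons of Fam166a overlapped Tubb4b over 121 bases and those of Gm41396 overlapped Tuba1b over 87 bases. On the same strand, exons of Gm49450 overlapped Tuba1a over 473 bases and Tuba1b over 426 bases, which the strand of a read cannot resolve. Gm49450 was also among the genes that shared stretches with Tuba1a and Tuba1b. Their shares can therefore include stretches at a single place in the genome, and are not copies elsewhere alone. The split of reads between copies, strands or overlapping genes is therefore uncertain for Tuba1a, Tuba1b, Tubb2a, Tubb2b, Tubb4b and Tuba4a. The stretch of 150 bases was set to the read length in the labels. By the study's methods the reads were paired, so these shares describe single reads and not pairs.

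In old brains, 8 of the 10 isotypes were lower (Tubb2a, Tubb3, Tubb4a, Tubb4b, Tubb5, Tuba1a, Tuba1b and Tuba4a) and none was higher at an adjusted p under 0.05 (edgeR's quasi-likelihood test, Benjamini-Hochberg over all 18492 genes). Over all genes tested, 11.0% passed in either direction and 4.89% were lower in old mice. Among the 4736 genes with a mean of at least 50 CPM (counts scaled by TMM to a common library total), a level that all isotypes but Tubb6 reached, 10.2% were lower and 7.88% were higher. The median log2 fold change was -0.18 for the 10 isotypes, -9.2e-05 for all genes tested and -0.012 for the genes of at least 50 CPM. The log2 fold changes of the 8 called isotypes lay between -0.15 and -0.26. None of the 10 isotypes passed the additional limit of an absolute log2 fold change over 0.58, which 2.5% of all genes tested did, while 9 of the 10 had an unadjusted p under 0.05. In 6 of the 10, every old library was below every young one, which held for 6.08% of all genes tested and for 569 (12%) of the 4736 genes of at least 50 CPM. The tissue is bulk, so fewer cells of a type and less RNA per cell cannot be told apart.

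Among the beta genes, Tubb2a, a major brain isotype, had 285, 312, 278, 290.3 and 283 CPM in the 5 young libraries and 229, 241, 233 and 263 CPM in the 4 old libraries. Every old library was below every young one. Its mean fell from 289.7 ± 13.2 (SD, n = 5) to 241 ± 15.1 CPM (n = 4), a log2 fold change of -0.26 (SE 0.045, adjusted p = 0.00124). In percent, the difference was -16.7%, with a 95% interval from -21.6% to -11.5%.

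Tubb2b, its neighbour on chromosome 13, is an isotype of neurons and glia linked to cortical development. Its CPM was 82.9, 92.3, 89.3, 93.9 and 93.6 in young mice and 83.7, 85.2, 82.8 and 84.9 in old mice. The groups overlapped through young replicate 1, whose value lay inside the old range. The log2 fold change of -0.10 (SE 0.041) was not called (adjusted p = 0.120), and it was called only when young replicate 1 was left out (adjusted p = 0.0438).

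Tubb3, the beta isotype used as a neuronal marker, had 308, 332, 328, 328 and 324 CPM in young and 253, 279.7, 283 and 293 CPM in old libraries. The groups did not overlap, and old replicate 1 was the lowest. The mean fell from 324 ± 9.45 to 277 ± 16.8 CPM, by 0.22 on the log2 scale (SE 0.042, adjusted p = 0.0025).

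Tubb4a is the beta isotype abundant in neurons and oligodendrocytes, and variants of its human counterpart cause a hypomyelinating disorder. It had the most counts of the 10, with 861, 799, 828, 767 and 831 CPM in the young libraries and 686, 723, 746 and 786 CPM in the old. Old replicate 5 lay above young replicate 4, so the groups overlapped. The log2 fold change was -0.15 (SE 0.044, adjusted p = 0.0312). This call was lost when any one of young replicates 1, 3 and 5 or old replicates 1 and 3 was left out (highest adjusted p = 0.109, without old replicate 1, log2 fold change -0.12).

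Tubb4b, a widely expressed isotype that is also a main component of cilia, had 178, 188, 192, 194 and 202 CPM in young libraries. In old libraries it had 143, 171, 172 and 166 CPM, all below the lowest young value. The log2 fold change was -0.23 (SE 0.052, adjusted p = 0.00945).

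Tubb5, the broadly expressed isotype that corresponds to human TUBB, had 379.9, 415, 375, 391 and 380.0 CPM in young and 328, 348, 351 and 361 CPM in old libraries. Again the groups did not overlap. The mean fell from 388 ± 16.3 to 347 ± 13.8 CPM, by 0.16 on the log2 scale (SE 0.040, adjusted p = 0.0131), which is -10.7% with a 95% interval from -15.4% to -5.77%. Leaving out any one library kept the adjusted p at 0.0490 or less.

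Tubb6, a beta isotype of many non-neuronal tissues, was rare here, with 6.38, 6.80, 7.42, 8.69 and 7.29 CPM in young libraries and 6.80, 6.63, 7.11 and 9.80 CPM in old libraries. These values came from 94 to 180 counts per library, and the groups overlapped almost entirely. Its log2 fold change was 0.05 (SE 0.13, adjusted p = 0.845), with a 95% interval of the difference from -12.9% to 23.3%. A change of the size seen in Tubb2a lay outside this interval, and one of the size seen in Tubb5 lay inside it.

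Of the alpha genes, Tuba1a, the main alpha isotype of developing neurons and mutated in human lissencephaly, had 559, 584, 542, 533 and 545 CPM in young mice. In old mice it had 415, 479, 444 and 513 CPM, without overlap and with the largest SD in CPM of the 10 isotypes in old mice (42.6, n = 4). The mean fell from 553 ± 19.8 to 463 CPM, a log2 fold change of -0.26 (SE 0.052, adjusted p = 0.00493).

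Tuba1b, expressed in most cell types, had 264, 272, 283, 284 and 289 CPM in young and 229, 250.1, 257 and 266 CPM in old libraries. Old replicate 5 lay just above young replicate 1. The log2 fold change of -0.15 (SE 0.044, adjusted p = 0.0320) was no longer called when any one of young replicates 3, 4 and 5 or old replicates 1 and 3 was left out (highest adjusted p = 0.115, without old replicate 1, log2 fold change -0.11).

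Tuba4a, the alpha isotype without a coded final tyrosine and with mutations reported in human amyotrophic lateral sclerosis, had 341, 350.0, 329, 349 and 323 CPM in young libraries. In old libraries it had 288, 293, 299 and 298 CPM. The old values were close together (SD 4.80, n = 4) and all below the young ones, and the log2 fold change was -0.20 (SE 0.036, adjusted p = 0.00172).

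**Figure D1:**
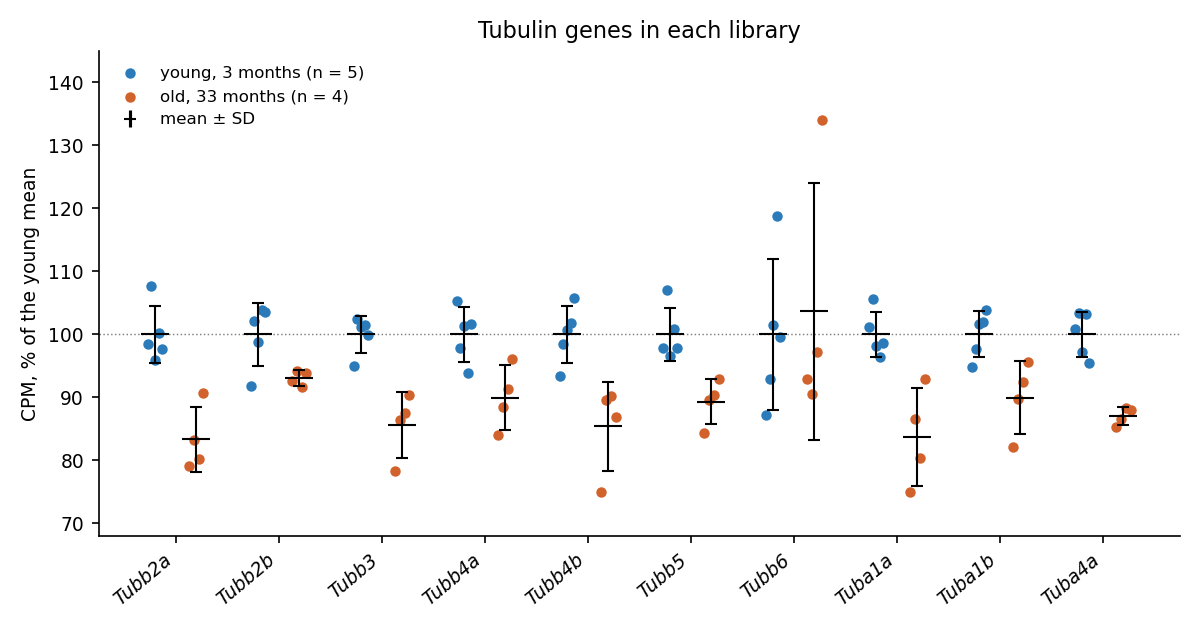
CPM of each isotype in each library as a percent of its young mean (points), with the mean and SD of each age (black). For Tubb2a, Tubb3, Tubb4b, Tubb5, Tuba1a and Tuba4a no old point reaches a young point, for Tubb2b, Tubb4a and Tuba1b the ages overlap, and Tubb6 spreads widest.

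**Figure D2:**
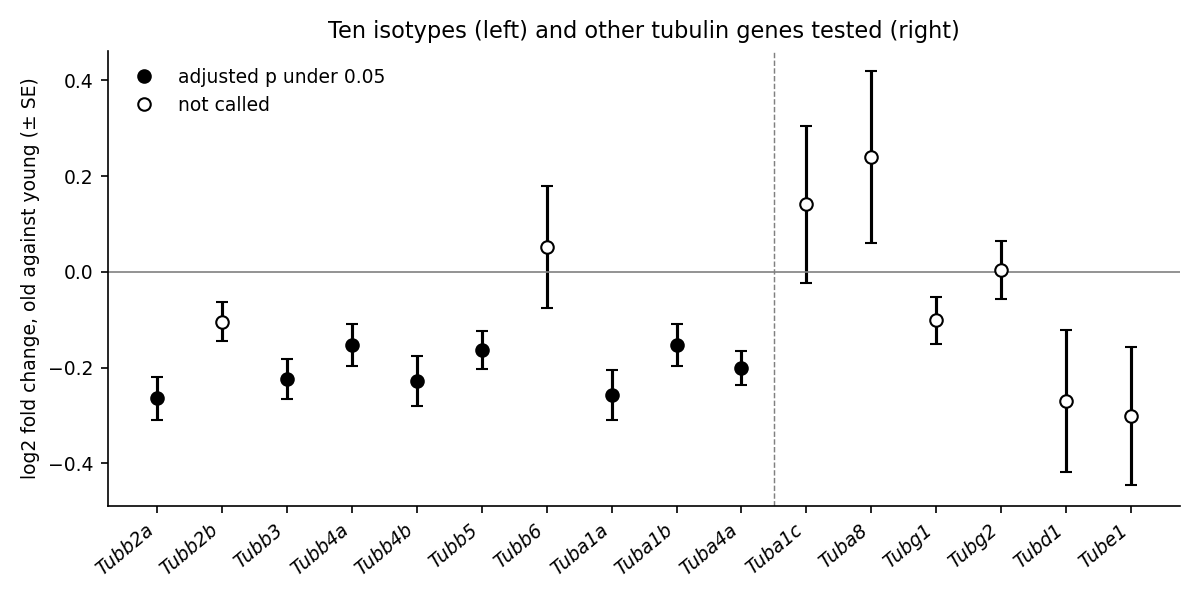
Log2 fold change of old against young with its standard error (edgeR) for the 10 isotypes and, right of the dashed line, for the 6 other tubulin genes that were tested. Filled points passed an adjusted p under 0.05, which 8 of the 10 isotypes and 0 of the 6 others did. The 6 others were far less abundant, with young means of 2.06 to 34.6 CPM against 191 to 817 CPM for the called isotypes.

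Summed over the 10 isotypes, tubulin transcripts made up 3266, 3352, 3252, 3240.2 and 3278 CPM in the young libraries and 2662, 2876, 2875 and 3039.95 CPM in the old ones. The ages did not overlap. The mean was 3278 ± 43.8 in young and 2863 ± 155 CPM in old mice, a difference of -12.6%, or 0.327% against 0.286% of all counts. The SD over old mice was larger than that over young mice, with old replicate 1 at the low end and old replicate 5 at the high end. No test was run on this sum, since it is a score over genes chosen together.

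The summed beta genes differed by -12.0% and the summed alpha genes by -13.8%, and neither sum overlapped between the ages. Alpha and beta chains are needed in equal numbers. The ratio of alpha to beta counts was 0.555 ± 0.0074 (SD, n = 5) in young and 0.543 ± 0.0083 (n = 4) in old mice. Its absolute size is not read, since counts depend on transcript length and on shared stretches. These were 54.7% for Tuba1a and 51.5% for Tuba1b, against 0% for Tubb4a. The ranges of the alpha to beta ratio overlapped, from 0.546 to 0.562 in young and from 0.534 to 0.551 in old libraries. With TPM, in which the authors divided counts by gene length and scaled each library to the same sum, the ratio was 0.586 in young and 0.574 in old mice.

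TPM gave a less even picture of the summed level than CPM. Summed TPM was 4216, 4082, 5273, 3358 and 3501 in young and 3176, 2796, 3055 and 3518 in old libraries. The ages overlapped on this scale, young replicate 3 stood highest, and the difference of the means was -23.2%. The median log2 difference of all genes tested was itself -0.14 on the log2(TPM + 1) scale. Relative to that shift the isotypes lay between -0.29 (Tubb2a) and 0.03 (Tubb6), with a median of -0.20, and 0 of the 10 were called by limma on these values, with 5 at an unadjusted p under 0.05. The relative values depend on the pseudocount. With 0.1 in place of 1 the shift was -0.162 against -0.142, and the isotype median before subtraction was -0.346 against -0.345. By DESeq2's Wald test on the counts, 8 of the 10 were called lower.

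**Figure D3:**
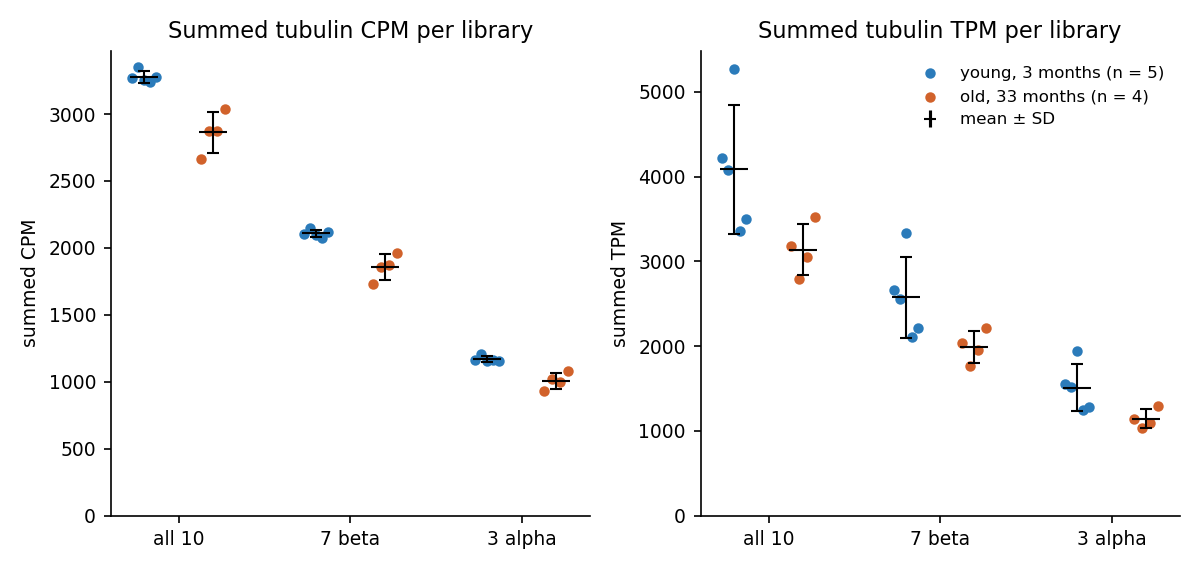
Summed CPM (left) and summed TPM (right) of all 10 isotypes, of the 7 beta genes and of the 3 alpha genes, with 1 point per library and the mean and SD of each age. The young libraries lie within a narrow band in CPM (3240.2 to 3352 for all 10) and spread from 3358 to 5273 in TPM.

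Levels of different isotypes can be compared only per length, so their order is given in TPM. The order is that of the deposited values, with gene lengths not given. Reads that map to several places were not counted, and stretches shared with another gene differed between isotypes. They were 54.7% for Tuba1a and 27.9% for Tubb2a, against 0% for Tubb4a and Tubb3. The part of these limits in the order was not tested. In young mice it ran Tubb4a (965), Tuba1a (881), Tubb2a (479), Tubb3 (454), Tuba1b (389), Tubb5 (305), Tubb4b (239), Tuba4a (239), Tubb2b (123) and Tubb6 (10.9 TPM). Tubb4b and Tuba4a could not be placed apart, since Tubb4b was the higher in 2 of 5 young and 2 of 4 old libraries, and they changed places in the old mean order (180.2 and 184 TPM). Tubb2a was above Tubb3 in 5 of 5 young and 3 of 4 old libraries, with a ratio of 0.969 to 1.11. Every other neighbour kept its place in all 9 libraries, although Tubb4a exceeded Tuba1a by a ratio of no more than 1.01 in the closest library. The order of the other isotypes was the same in old as in young mice.

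The share of each isotype in the summed tubulin counts differed little between the ages. Tubb4a made up 24.9% ± 1.15 (SD, n = 5) in young and 25.7% ± 0.37 (n = 4) in old mice. Tuba1a made up 16.9% ± 0.40 in young and 16.1% ± 0.73 in old mice. Tubb5 made up 11.8% ± 0.38 and 12.1% ± 0.19. Shares of all 10 isotypes overlapped between the ages. Counts depend on transcript length, so these shares are compared between the ages and not between isotypes. In TPM the young shares were 5.87% for Tuba4a, 7.49% for Tubb5 and 11.7% for Tubb2a.

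Each share was compared alone by a two-sided exact permutation test over all ways to place 4 old labels on 9 libraries, in which the smallest possible p is 0.00794. None of the 10 shares had an unadjusted p under 0.05, so nothing passed before any adjustment over these 10 values, which sum to 100% and are not independent. The smallest exact values were p = 0.0794 for Tubb2a (8.84% in young, 8.43% in old mice, a difference of -0.41 percentage points) and p = 0.0873 for Tubb2b (2.76% and 2.95%, a difference of 0.19 percentage points). The remaining shares in young and old mice were 10.3% and 10.3% for Tuba4a, 9.88% and 9.68% for Tubb3, 8.50% and 8.75% for Tuba1b, 5.83% and 5.69% for Tubb4b and 0.223% and 0.264% for Tubb6. With 1 library left out the count of shares at an unadjusted p under 0.05 reached 1 of 10, for Tubb3 without young replicate 1 and for Tubb6 without young replicate 4 (exact p = 0.0286 in both).

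**Figure D4:**
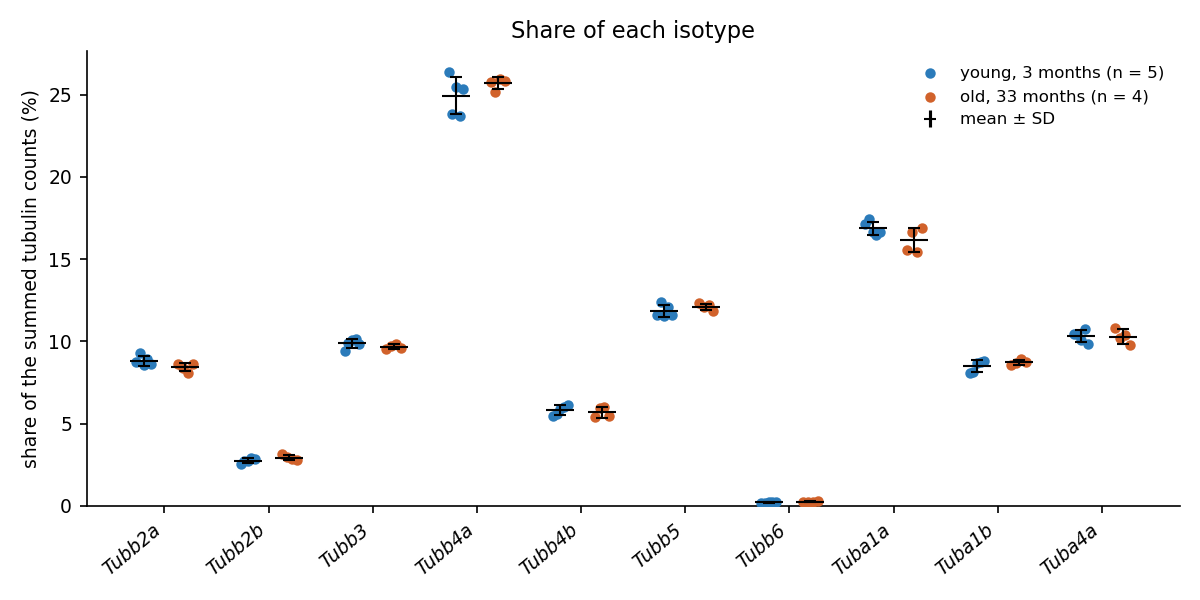
Share of each isotype in the summed counts of the 10 tubulin genes, in percent, with 1 point per library and the mean and SD of each age. The ages overlap for every isotype, and Tubb4a holds the largest share in both (24.9% and 25.7%).

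The other tubulin genes did not pass the test. The list held 10 genes, of which 6 were tested, and their median log2 fold change was -0.049. Gamma-tubulin, which nucleates microtubules, was measured by Tubg1, at 34.6 ± 1.35 CPM in the young and 32.3 ± 0.72 CPM in the old libraries (log2 fold change -0.10, adjusted p = 0.202), and by Tubg2, with 34.2 ± 2.80 and 34.3 ± 1.22 CPM (0.0041, adjusted p = 0.976). The delta and epsilon tubulins of centrioles, Tubd1 and Tube1, had log2 fold changes of -0.27 and -0.30 with SE 0.15 and 0.14 (adjusted p = 0.273 and 0.202), at 58 to 128 and 48 to 88 counts. By edgeR and by DESeq2, 0 of the 6 were called and 0 had an unadjusted p under 0.05.

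The alpha gene Tuba1c, next to Tuba1a and Tuba1b on chromosome 15, had only 2.06 ± 0.21 CPM in the young libraries and 2.27 ± 0.26 CPM in the old ones. Tuba8, an alpha isotype of muscle, had 13.7, 16.9, 13.6, 15.1 and 15.3 CPM in young libraries and 17.1, 15.02, 13.1 and 25.4 CPM in old libraries. Old replicate 5 was the high value, and the log2 fold change of 0.24 had SE 0.18 (adjusted p = 0.454).

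Tuba3a, Tuba3b, Tubal3 and Tubb1 were too low to test. Tuba3a, a testis isotype, had 0 to 7 counts, Tuba3b had 0 to 2 counts and Tubal3 had 0 counts in every library. Tubb1, the beta isotype of platelets, had 0, 1, 2, 1 and 0 counts in young and 2, 3, 25 and 5 counts in old mice. The blood markers were also higher in old mice, with 3 of the 7 tested higher and none lower in old mice, a median log2 fold change of 1.26, and mean log2 CPM of 2.60 to 2.97 in young and 3.04 to 4.70 in old libraries. Old replicate 4 was the highest for both Tubb1 and the blood markers, and the part of blood in the Tubb1 counts was not tested.

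Genes that fold, modify or bind tubulin were described by 7 lists, whose counts stand beside the 11.0% of all genes that passed the test. Of 121 list genes tested, 4 were higher and 16 were lower in old mice, together 20, and the median log2 fold change was -0.043. The 20 called genes all had means above 50 CPM in both ages. Among all genes of at least 50 CPM, 10.2% were lower and 7.88% were higher. On log2(TPM + 1) values limma called 0 of the 121, with 6 at an unadjusted p under 0.05 and a median of -0.20, or -0.057 relative to all genes. With a pseudocount of 0.1 the list median was -0.205 and that of all genes -0.162.

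The stathmins bind and sequester tubulin dimers. All 4 of the list were tested and 3 were lower, with a median log2 fold change of -0.19, close to that of the isotypes themselves. Stmn2, the axonal stathmin, fell from 297 ± 12.1 to 246 ± 16 CPM (log2 fold change -0.27, SE 0.045, adjusted p = 0.000956). Stmn3 fell by 0.24 (SE 0.033, adjusted p = 0.000204) and Stmn1 by 0.14 (SE 0.036, adjusted p = 0.0193) on the log2 scale. The values of these 3 did not overlap between the ages, which is read against the 12% of genes of at least 50 CPM given above.

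For folding and autoregulation, 1 of 22 genes was higher and 2 were lower (median -0.045). The lower ones were subunits of the CCT chaperonin, Cct7 (log2 fold change -0.12, adjusted p = 0.0291) and Cct3 (-0.13, adjusted p = 0.04999). Pfdn5, a subunit of prefoldin, which hands unfolded chains to CCT, was higher (0.15, adjusted p = 0.0324). On the TPM scale it was at -0.018, which is 0.12 above the median of all genes on that scale.

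Of 25 enzymes that modify tubulin, 4 were lower and none was higher (median -0.11). Ttl, the ligase that puts the final tyrosine back on alpha chains, fell from 72.0 ± 2.09 to 64.3 ± 2.30 CPM (log2 fold change -0.16, SE 0.040, adjusted p = 0.0146). The glutamylases Ttll5 (-0.18, adjusted p = 0.0317) and Ttll7 (-0.13, adjusted p = 0.0348), which add glutamates to the tails, were lower. Agtpbp1, a deglutamylase that trims them, was lower too (-0.13, adjusted p = 0.0302).

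Microtubule-associated proteins moved in both directions, with 2 of 24 higher and 3 lower (median -0.0095). Map7, which recruits kinesin, rose from 128 ± 3.76 to 173 ± 2.28 CPM, a log2 fold change of 0.43 (SE 0.035, adjusted p = 1.48e-06), without overlap between the ages. Numa1, of the spindle poles, was higher (0.13, adjusted p = 0.0274), and on the TPM scale it was at -0.036, or 0.11 above the median of all genes. Map1lc3a, which is also the autophagy protein LC3A, was lower by -0.23 (adjusted p = 0.00148), the dendritic Map2 by -0.14 (adjusted p = 0.0259) and Tppp, of oligodendrocytes, by -0.12 (adjusted p = 0.0494).

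Of 23 kinesin and dynein genes, none was higher and 3 were lower, namely Klc2 (-0.15, adjusted p = 0.00694), Kif3a (-0.13, adjusted p = 0.0228) and Dynll2 (-0.15, adjusted p = 0.0240), with a list median of -0.045. Of 15 plus-end and severing genes, Clasp2 was lower (-0.15, adjusted p = 0.0170) and Clip1 was higher (0.11, adjusted p = 0.0466, and on the TPM scale -0.056, or 0.085 above the median of all genes), with a median of -0.025. Of 8 genes of the gamma-tubulin ring complex, which seeds microtubules, 0 passed by edgeR or by DESeq2, 1 had an unadjusted p under 0.05 by edgeR, and the median was 0.0061.

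Of the 20 microtubule genes named here, 6 kept their call when any one library was left out (Map7, Klc2, Ttl, Stmn2, Stmn3 and Map1lc3a). The other 14 lost it in at least 1 of the 9 such fits, Cct3 and Tppp in 8, Clip1 in 7, Ttll5 and Ttll7 in 6, Cct7 in 5, Agtpbp1, Dynll2, Map2, Numa1 and Pfdn5 in 4, Kif3a and Stmn1 in 3 and Clasp2 in 2. The highest adjusted p was 0.141 for Tppp, 0.134 for Cct3, 0.123 for Ttll7 and 0.108 for Ttll5. Each library mattered to some of them, with 10 of the 20 calls lost without young replicate 1, old replicate 1 or old replicate 5, 8 without young replicate 3, young replicate 5 or old replicate 4, 5 without young replicate 2 or old replicate 3 and 4 without young replicate 4. Tppp was also not called with upper quartile factors (adjusted p = 0.0547) or with a prior that was not robust (0.0570), nor Cct3 with that prior (0.0552), nor Clip1 with upper quartile factors (0.0522).

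**Figure D5:**
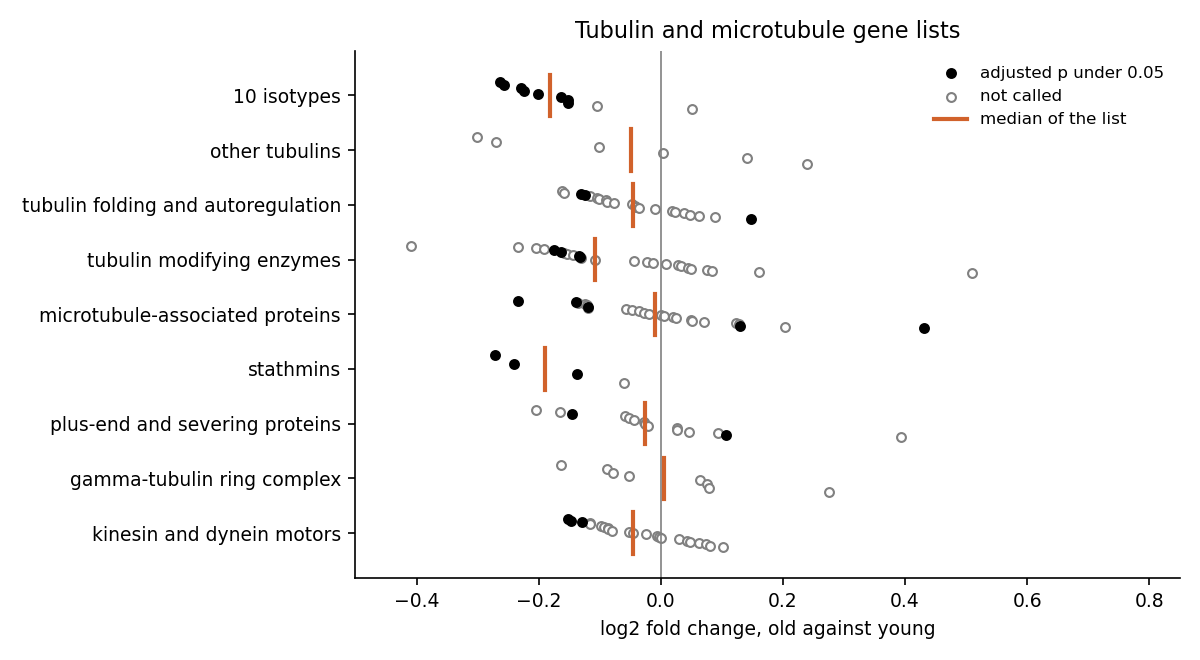
Log2 fold change of old against young for each tested gene (points, filled where the adjusted p was under 0.05) of the 10 isotypes, the other tubulins and the 7 microtubule lists, with the list median as a line. The medians of the isotypes (-0.18) and the stathmins (-0.19) lie furthest from 0, and the highest filled point is Map7 (0.43).

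Markers of the cell types in whole brain were read beside these results, by edgeR unless another tool is named, and their counts stand beside the same 11.0% of all genes. Of 10 markers of mature neurons, all were tested and none was called by edgeR (2 were by DESeq2, and 4 had an unadjusted p under 0.05 by edgeR, all lower), the median log2 fold change was -0.032, and their mean log2 CPM was 9.03 to 9.07 in young and 8.91 to 9.04 in old libraries. The markers of immature neurons had 0 of 10 higher and 2 lower (Sox11 and Dpysl3, median -0.12), those of oligodendrocyte precursors 0 higher and 3 lower (median -0.062), and those of oligodendrocytes 3 higher and 1 lower (median 0.093). The markers of microglia had 3 of 10 higher (median 0.38), those of endothelial cells 4 of 10 higher (median 0.15), and those of ependymal cells, whose cilia hold Tubb4b, 1 of 10 lower (median -0.47). Of 10 astrocyte markers, 0 were called by edgeR, 3 were by DESeq2, 2 were lower and 2 higher at an unadjusted p under 0.05 by edgeR, and the median was 0.050. Of the markers of liver and muscle, 2 could be tested (median 1.42), of which edgeR called 0, with 1 at an unadjusted p under 0.05, and DESeq2 called 1. Their mean log2 CPM was 0.19 to 0.93 in young libraries and 1.66, 0.33, 3.11 and 0.83 in old libraries, with old replicates 1 and 4 above all young ones. No brain marker list had a gene at 0 in all libraries, and the part of cell composition in the isotype results was not tested.

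Genes that tracked Tubb5 most closely over the 9 libraries were named by Pearson's r of log2 CPM, as a description that includes the difference between the ages. They were Ppp2ca (0.973), Idh3a (0.969), Tubb2a (0.965), Pcnx4 (0.959) and Gpc2 (0.949). Among 18491 other genes, Tubb3 ranked 13, Tuba4a 15 and Tuba1a 21 by this measure, while Tubb4b (0.812), Tuba1b (0.791), Tubb2b (0.723), Tubb4a (0.711) and Tubb6 (0.088) followed less closely.

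Bases upstream of the start of transcription are shown for Tubb2a and Tubb5, since both were lower in old mice and Tubb2a was the isotype whose values tracked Tubb5 most closely. They are the 250 bases before the RefSeq start (GRCm38.p6), 5′ to 3′, with matches on either strand to 3 motifs in capitals. The motifs searched were the TATA box as TATAA, the CCAAT box as CCAAT and the GC box as GGGCGG, and no motif holds another.
Tubb2a (chr13:34078009-34078258, minus strand): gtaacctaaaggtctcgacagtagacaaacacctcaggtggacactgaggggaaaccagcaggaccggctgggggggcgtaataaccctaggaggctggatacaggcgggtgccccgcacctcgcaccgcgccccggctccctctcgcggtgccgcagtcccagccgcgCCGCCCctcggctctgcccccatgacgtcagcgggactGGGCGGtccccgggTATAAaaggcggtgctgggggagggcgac
Tubb5 (chr17:35838302-35838551, minus strand): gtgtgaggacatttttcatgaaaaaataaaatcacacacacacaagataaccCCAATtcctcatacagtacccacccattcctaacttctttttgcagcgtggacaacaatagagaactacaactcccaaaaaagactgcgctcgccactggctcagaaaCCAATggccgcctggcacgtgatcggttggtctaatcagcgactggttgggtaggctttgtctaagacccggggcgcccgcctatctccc

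In this window Tubb2a held 1 match to the TATA box, 2 to the GC box and none to the CCAAT box, with 68.4% G and C. Tubb5 held 2 matches to the CCAAT box and none to the other motifs, with 49.2% G and C. Of the 8 isotypes with an entry (Tubb2a, Tubb3, Tubb4a, Tubb4b, Tubb5, Tuba1a, Tuba1b and Tuba4a), 3 held a TATA box, 4 a CCAAT box and 6 a GC box, against 22.8%, 33.8% and 32.7% of the 32851 windows of this length. The median share of G and C was 61.6% in the 8 windows and 52.4% in all windows, and its part in these matches was not tested. A match describes letters only.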

How the data were processed

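Whole brains of 5 young and 4 old mice were compared. The authors trimmed reads, aligned them to GRCm38 with STAR and counted uniquely mapped reads on exons with featureCounts, and deposited the raw counts per gene. A second deposited table holds normalized counts, a signal made by the authors with 1 size factor per library. The deposited TPM values were scaled by the authors to a fixed sum, with gene lengths not given in the sources used here. The submitters' processing notes name mm10 and DESeq2. Each table held 1 further column that matched no sample used here.

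Counts per library ranged from 14229259 to 21150439, and the number of mice limits the precision. Genes were kept with filterByExpr (minimum count 10, total 15), scaled with TMM and tested with edgeR 4.0.16 (robust quasi-likelihood test, R 4.3.3, Benjamini-Hochberg). limma 3.58.1 and DESeq2 1.42.0 served as alternatives, with pseudocounts of 1 and 0.1 for TPM. Standard errors came from the fold change and the test statistic, and CPM from TMM library sizes. The scripts were tested on simulated data. Libraries of one age differed by more than sampling noise (chi-square over its degrees of freedom, lowest value 4.09), so each counted as 1 replicate. The labels number the mice but give no litter or cage, so p-values measure the spread between these mice.

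Symbols, exons and coding ends came from GENCODE M21, and 345 IDs had no symbol. Strand was not given for the counting. All 10 isotypes, the other tubulins, up to 4 genes with the lowest p in each direction of each list and the 5 genes most correlated with Tubb5 are named. Members and lists were chosen with earlier results of these data known.

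Some sequences are not reported here.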

Additional observations from a re-analysis of the deposited data

Results flagged for a closer look

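In groups of 4 or 5 libraries, 130 values were looked at for a sample far from the others by Dixon's ratio (its gap to the nearest other sample over the range), and 5 exceeded the 95% limit, where chance gives about 6.5. None of the 10 isotypes was among them. The mean log2 CPM of the microglia markers was 4.49 in young replicate 4, above 4.04 to 4.11 in the other young libraries (ratio 0.856). The tyrosine ligase gene Ttl was at 6.10 log2 CPM in young replicate 5, below 6.18 to 6.20 in the others (0.796). The glutamylase gene Ttll7 was at 7.99 in old replicate 1, below 8.11 to 8.13 (0.852). Map1lc3a was at 6.86 in old replicate 4, above 6.79 to 6.80 (0.902). Stmn1 was at 8.10 in young replicate 3, below 8.16 to 8.18 (0.729).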

How the results depend on the processing

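The 8 isotype calls were counted again under 20 other fits, 2 of which (a prior without the robust option, and the 8 mice of the block without their number) were chosen after seeing the data. The count was 8 with DESeq2 or upper quartile factors, DESeq2's Wald test, limma on the authors' normalized counts, other count filters and both added fits. It was 0 with limma on log2(TPM + 1) or log2(TPM + 0.1), whose median over all genes shifted to -0.14 and -0.16, and 0 with the fold threshold. With the replicate block it was 7 (Tubb4a lost, adjusted p = 0.0527, with a log2 fold change of -0.16 against -0.15 without the block), and without each mouse in turn 6 to 8. Same-numbered mice did not deviate together (r = 0.17, -0.118, 0.0884 and -0.0243), so the numbers were not taken to pair them. No isotype that was called changed sign in any fit.

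The 20 calls among the microtubule lists became 0 on both TPM scales and with the fold threshold, 11 with the replicate block (16 in the same mice without it), and 10 to 20 without each mouse in turn (10 without young replicate 1, 11 without old replicate 1 or 5, 12 without young replicate 5, 13 without young replicate 3). With every counted gene tested, 24 were lower and 1 higher. Pfdn5 (-0.018 with both pseudocounts), Numa1 (-0.036 with both) and Clip1 (-0.056 and -0.058) were below 0 on TPM, and relative to the median of all genes on that scale they were at 0.12 and 0.14, 0.11 and 0.13, and 0.085 and 0.10. The summed level differed by -12.6%, by -23.2% in TPM, and by -10.6% (without old replicate 1) to -14.4% (without old replicate 5) with 1 mouse left out. The count of shares at an unadjusted p under 0.05 was 0, and 0 to 1 with 1 mouse left out, and 0 by the replicate block, whose 4 pairs allow no p under 0.125. The cause of these changes was not tested.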

Other observations

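Within a library, library size cancels from the ratio of 2 genes. The ratio of Tubb2a to Tubb2b counts was 3.44, 3.38, 3.11, 3.09 and 3.02 in young and 2.74, 2.83, 2.81 and 3.09 in old mice, with old replicate 5 inside the young range. The ratio of Tuba1a to Tuba1b counts was 1.99 ± 0.13 (SD, n = 5) in young and 1.85 ± 0.094 (n = 4) in old mice, and that of Tubb4a to Tubb4b was 4.29 ± 0.33 and 4.52 ± 0.28, with overlap in both. These ratios were not tested.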
